A study of Mus musculus with 6 samples.

Results

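The genes described here encode receptors of the IL-1, TNF and toll-like receptor pathways, an IL-1 family ligand, an IL-1 receptor antagonist and a shared adaptor. They were chosen by symbol, as 10 of the 55416 genes in the deposited expression table: Il1r1, Il1rap, Il1rl1, Il33, Il1rn, Tnfrsf1a, Tnfrsf1b, Tlr2, Tlr4 and Myd88. Their levels were compared between primary chondrocytes of the mouse that had received a scrambled siRNA as control (siNC, labeled wild type, n = 3 libraries) and those that had received an siRNA against Pkm2 (siPkm2, n = 3 libraries), to ask which transcripts differ after knockdown of this pyruvate kinase isoform. Both groups were grown in DMEM/F12 with 10% serum, and no added cytokine is stated for either. The titles name all 3 treated libraries as siPKM2, whereas their genotype labels read PKM2, PKM3 and PKM4 knockdown; all 3 were taken as siPkm2. The labels give neonatal knee joints as the source of the cells and the study's supplement gives adult mice, so the age was left unresolved. The study states independent repeats for its experiments in general but not what a replicate of these libraries is (animal, culture or well), so the p-values measure the spread between these libraries, which may in part be technical.

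IL-1 and IL-33 each bind a receptor chain of their own, which then recruits the shared accessory chain encoded by Il1rap. These receptors and most toll-like receptors carry a cytoplasmic TIR domain that recruits MyD88, which passes the signal through IRAK kinases and TRAF6 to NF-κB. TNF receptors lack this domain and reach NF-κB through TRAF proteins and RIPK1. In cartilage, IL-1 and TNF are known to make chondrocytes produce matrix-degrading enzymes and to reduce collagen II and aggrecan, and toll-like receptors can respond to fragments of the matrix.

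Levels are given as CPM, a gene's counts relative to the library's total after TMM scaling (log2 fold changes are siPkm2 over siNC), and as deposited TPM, which also divides by transcript length and is used wherever different genes are compared. Totals lay between 22317065 and 25691096 estimated counts per library. Pkm, the targeted gene, measured 2335, 2746 and 1674 CPM in replicates 1, 2 and 3 of siNC and 336.2, 540.6 and 309.3 CPM in those of siPkm2 (log2 fold change of -2.51, adjusted p = 0.0738 without a block and 0.00932 with the replicate number as a block; edgeR). Replicate 2 stood apart in both groups: summed levels of 12 IL-1 and NF-κB response genes reached 11990 and 12180 CPM there, against 97.9 to 377.4 CPM in the other 4 libraries, and summed chondrocyte markers (9 genes) lay at 10110 and 14130 CPM against 40840 to 47960 CPM. Lcn2 (lipocalin 2), the response gene with the highest CPM, was at 4711 and 5526 CPM in replicate 2 and at 12.4 to 43.8 CPM elsewhere. Col2a1, the collagen that defines hyaline cartilage, was present in every library, at 8526 to 36070 CPM. Of 8 macrophage markers, Ptprc, Itgam, Adgre1 and Cx3cr1 had at most 5 counts in any library. Lyz2 (43 to 83 counts), Mrc1 (28 to 46) and Csf1r (14.06 to 53.29 estimated counts) were present in every library. The summed level of the 8 was 62.8 and 40.1 CPM in replicate 2, against 8.54 to 16.7 CPM elsewhere. Cd68 made up most of it in replicate 2, at 55.5 and 33.4 CPM. All 6 mast cell markers were at 0 in every library, summed neutrophil markers (5 genes) reached at most 1.17 CPM and summed endothelial markers (5 genes) at most 3.35 CPM. In these bulk samples, fewer cells of a type and less RNA per cell cannot be told apart.

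**Figure D1:**
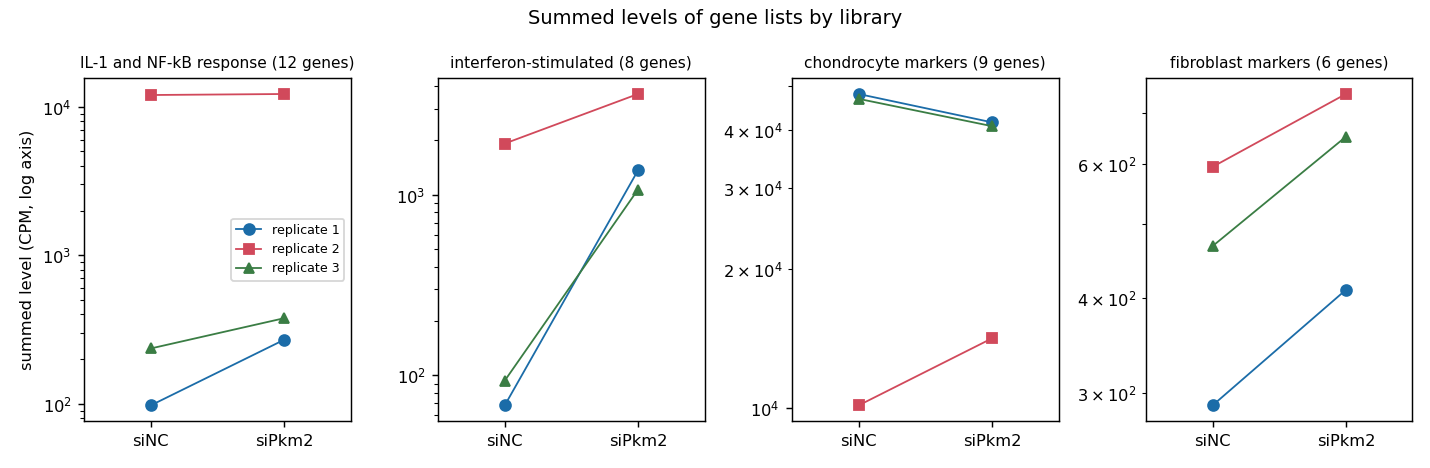
Summed level in CPM (log axis) of 4 gene lists in each library, with a line joining the siNC and siPkm2 libraries of the same replicate number. Replicate 2 has the highest response and interferon levels and the lowest chondrocyte level in both groups, while the interferon list is higher in siPkm2 in every pair, at 1363, 3611 and 1068 CPM against 68.2, 1920 and 93.4 CPM in siNC.

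Promoter sequence was read for the members with an entry in the RefSeq promoter table (GRCm38.p6, 250 bases before to 50 after each start), which covered 9 of the 10 genes with 14 windows. Since response genes and interferon-stimulated genes differed strongly between these libraries, the windows were searched on both strands for the NF-κB consensus and for an interferon-stimulated response element written TTTCNNTTTC. The NF-κB consensus was found in 1 member, Tlr2 (1 of the 14 windows), and in 5.80% of all 32851 windows. The response element was found in 3 members, Tnfrsf1b, Myd88 and Il1rap (3 of the 14 windows), and in 3.44% of all windows. The matched stretches upstream of the start are shown in the direction of transcription with the motif in capitals. They lie on the minus strand at chr3:83841771-83841820 for Tlr2 (motif at -172 to -163), at chr4:145246871-145246920 for Tnfrsf1b (motif at -10 to -1), and at chr9:119340049-119340098 for Myd88 (motif at -40 to -31). For Tlr2 and Myd88 the RefSeq start lies inside the annotated gene. The Tlr2 motif lies just before the annotated start of its gene. The match in Il1rap lay downstream of its start, at positions 21 to 30. No 2 matches overlapped, and a match of letters does not show binding.
Tlr2: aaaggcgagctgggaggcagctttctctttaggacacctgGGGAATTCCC
Tnfrsf1b: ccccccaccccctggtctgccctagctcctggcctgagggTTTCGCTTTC
Myd88: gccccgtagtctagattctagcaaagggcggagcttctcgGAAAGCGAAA

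All 10 members passed the filter on low counts, among 15269 genes tested. Mean fitted levels were higher in siPkm2 for 8 of them and lower for Il1rl1 and Il1rn, with a median log2 fold change of 0.37 against -0.02 over all genes tested. None was called by edgeR's quasi-likelihood test at a fold over 2 and a Benjamini-Hochberg adjusted p under 0.05, a threshold that called 0% of all genes. Tlr4 and Myd88 had an unadjusted p under 0.05, as did 17.6% of all genes. DESeq2 without a block called 2.79% of genes and no member. Libraries with the same replicate number deviated together, and with the number as a block edgeR called Tlr4 and Tnfrsf1b as higher in siPkm2 and no member as lower; the block called 5.83% of all genes, 2.65% as higher and 3.18% as lower. With no limit on the fold, 5 members rose under the block (Myd88, Tlr4, Il1r1, Tnfrsf1b and Il1rap) and none fell, where 23.1% of all genes passed, 12.3% as higher and 10.8% as lower.

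Within replicate pairs, siPkm2 was above siNC in all 3 pairs for 7 members, as for 30.5% of genes, and below in all 3 for Il1rn alone, as for 30.6% of genes. In CPM, all siPkm2 libraries lay above all siNC libraries for 2 members, Tlr4 and Myd88, a pattern of 12% of genes, and for no member did they all lie below, as they did for 12.3% of genes. For a single gene, 3 against 3 libraries allow an exact two-sided permutation p of 0.1 at the smallest, which Tlr4 and Myd88 reached. Replicate 2 was the highest library of both groups for 9 members, all but Il1rn, against 26.9% of genes. It was more than 2 times as high as both other replicates in each group for Il1rl1, Tlr2 and Il1rap, against 4.31% of genes.

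**Figure D2:**
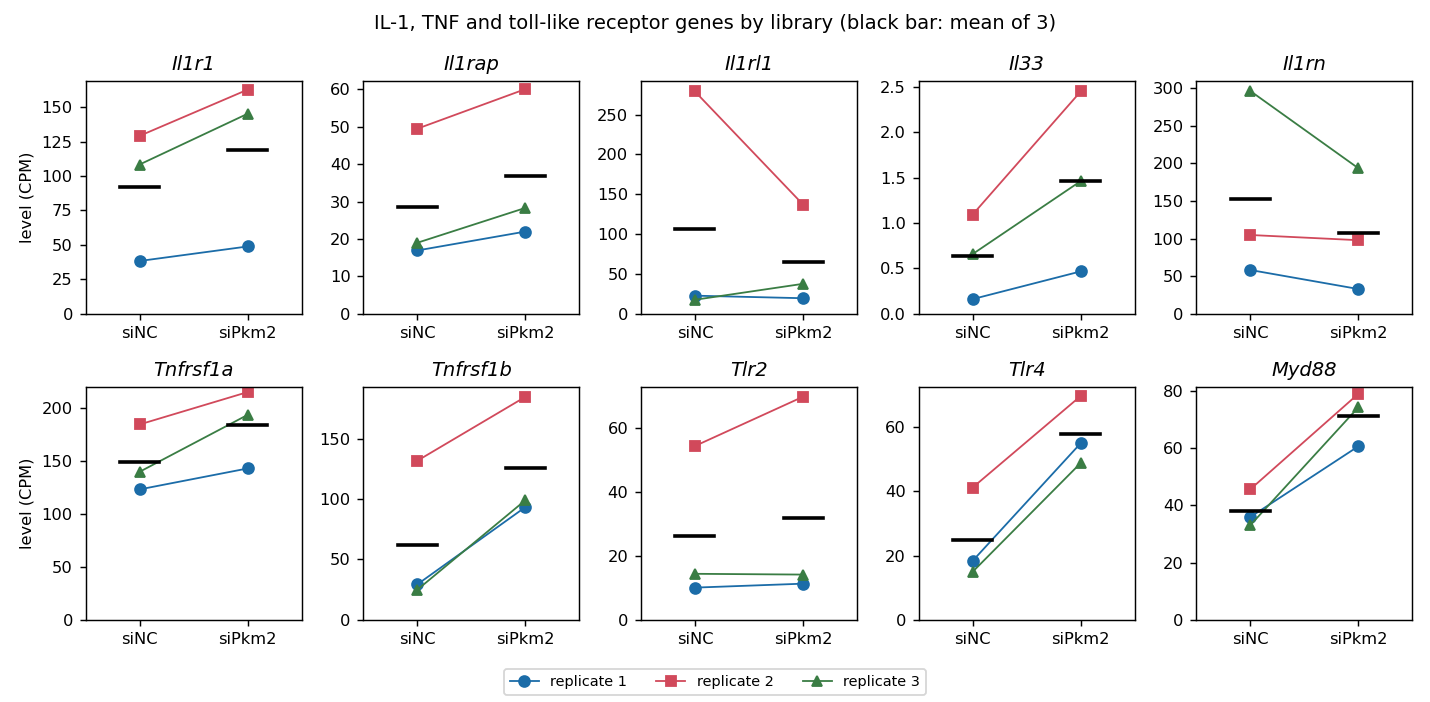
Level in CPM (linear axis from 0, own scale for each gene) of the 10 members in each library, with lines joining the libraries of the same replicate number and black bars for the mean of 3. Tlr4 and Myd88 are the genes whose siPkm2 libraries all sit above the siNC libraries, and replicate 2 is on top in both groups for every gene but Il1rn.

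Per transcript length, the members differed widely in control cells. In siNC the mean TPM was highest for Il1rn (207.2 ± 169.7, SD, n = 3), followed by Tnfrsf1a (121.2 ± 32.4), Il1rl1 (69.3 ± 99.8), Myd88 (34.5 ± 7.60), Il1r1 (27.2 ± 15.3), Tnfrsf1b (27.1 ± 27.7), Tlr2 (14.8 ± 14.5), Tlr4 (11.3 ± 7.69), Il1rap (11.2 ± 7.84) and Il33 (0.48 ± 0.29). Neighbors in this order did not differ beyond their spread, except that Il33 lay below Il1rap in every library, at 0.21 to 0.78 TPM against 5.82 to 20.2 TPM. The accessory chain was measured below Il1r1, its partner chain, in each siNC library.

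Il1r1 encodes the signaling receptor for IL-1 (chr1:40225080-40317257, plus strand, GRCm38). It measured 38.2, 129.1 and 108.3 CPM in siNC and, in the same order of replicates 1, 2 and 3, 48.8, 162.7 and 145.2 CPM in siPkm2. Replicate 1 was low and replicates 2 and 3 high in each group, so the groups overlapped widely, yet each siPkm2 library was above its siNC partner by a similar ratio, 1.28, 1.26 and 1.34. The group means of 91.9 ± 47.6 and 118.9 ± 61.3 CPM (SD, n = 3) gave a log2 fold change of 0.37 ± 0.58 (SE, adjusted p = 0.795), and the block gave 0.37 ± 0.08 (adjusted p = 0.0278, edgeR). The difference between pairs exceeded the difference between groups, since replicate 3 was 2.83 and 2.98 times replicate 1 in siNC and siPkm2. Summed fibroblast markers (6 genes) stood in the same order, at 288.7, 594.0 and 467.4 CPM in siNC and 409.4, 740.4 and 650.6 CPM in siPkm2, and their part in the Il1r1 result was not tested. Within that list Prg4, Pdpn and Cd34 were higher in siPkm2 in every pair. Thy1 was lower in every pair, at ratios of 0.234, 0.834 and 0.652, and Pdgfra and Dpt were lower in pairs 1 and 3. In pair 1 Prg4 rose most, from 15.9 CPM in siNC to 128.7 CPM in siPkm2, followed by Pdpn, from 72.15 to 162.5 CPM. Pdgfra fell there from 143 to 77.5 CPM and Thy1 from 25.7 to 6.01 CPM. The paper counts PRG4 among the matrix genes of a chondrocyte subgroup, so the sum is not a measure of fibroblast RNA alone.

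Il1rap encodes the accessory chain that completes the receptors for IL-1 and IL-33 (chr16:26581704-26730117, plus strand). It stood at 16.9, 49.5 and 19.0 CPM in siNC and at 21.96, 60.1 and 28.3 CPM in siPkm2. Replicate 2 was above the mean of replicates 1 and 3 by 2.76 times in siNC and 2.39 times in siPkm2, and the groups overlapped. Within pairs siPkm2 was higher by ratios of 1.30, 1.21 and 1.49, with a log2 fold change of 0.37 ± 0.55 without a block (adjusted p = 0.781) and 0.41 ± 0.10 with it (adjusted p = 0.0395, edgeR). An antisense gene, Gm20319, overlaps its exons and held at most 1.32 estimated counts in a library.

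Il1rl1 encodes ST2, the receptor for IL-33, which exists as a membrane chain and as a soluble decoy that gene counts do not separate (chr1:40429570-40465415, plus strand). This receptor varied most between libraries, at 22.6, 279.0 and 17.4 CPM in siNC and 19.4, 137.0 and 37.5 CPM in siPkm2. Replicate 2 was 14.0 times the mean of the other replicates in siNC and 4.82 times in siPkm2. The pairs disagreed in direction, with ratios of 0.859, 0.491 and 2.15, and the log2 fold change was -0.72 ± 1.21 (adjusted p = 0.815) without the block and -0.08 ± 0.40 (adjusted p = 0.898) with it. Its sign turned without siNC replicate 2, where the log2 fold change was 1.69. The defining mast cell markers, genes of a cell type known for ST2, were at 0 in all libraries.

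Il33, the ligand of ST2 and a nuclear alarmin released from damaged cells, was the member with the lowest level (chr19:29925114-29960718, plus strand). It had 4, 27 and 15 counts in siNC and 10, 63 and 32 counts in siPkm2, with exact Poisson 95% intervals from 1.09 to 10.2 for the lowest and 48.4 to 80.6 for the highest. Scaled levels were 0.16, 1.09 and 0.66 CPM in siNC and 0.47, 2.45 and 1.46 CPM in siPkm2. Each siPkm2 library was above its partner by more than 2 times (2.91, 2.24 and 2.23), but libraries of different pairs overlapped in CPM. The log2 fold change was 1.20 ± 0.82 (adjusted p = 0.501), and 1.23 ± 0.33 with the block (adjusted p = 0.0521, edgeR), so this ligand did not pass. In TPM the groups did not overlap, at 0.21, 0.78 and 0.45 in siNC and 1.32, 1.67 and 1.04 in siPkm2, where replicate 1 exceeds replicate 3 despite fewer counts, and limma on log2(TPM + 0.5) gave an adjusted p of 0.2.

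Il1rn encodes the IL-1 receptor antagonist, which occupies Il1r1 without signaling (chr2:24336853-24351494, plus strand); its secreted and intracellular forms are not separated by gene counts. The antagonist was at 58.1, 104.7 and 296.4 CPM in siNC and at 32.8, 97.8 and 193.5 CPM in siPkm2. Unlike the other members it was highest in replicate 3, by 5.10 times replicate 1 in siNC and 5.91 times in siPkm2. Every siPkm2 library was below its partner, at ratios of 0.564, 0.934 and 0.653, and the groups overlapped. The log2 fold change was -0.50 ± 0.78 (adjusted p = 0.795), and -0.51 ± 0.15 with the block (adjusted p = 0.0636, edgeR), short of the threshold. Without siNC replicate 3 its sign turned, to 0.41.

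Tnfrsf1a encodes TNFR1, the broadly expressed receptor through which TNF drives inflammation and cell death (chr6:125349362-125362484, plus strand). It was among the members with the smallest spread, at 123.1, 184.4 and 139.7 CPM in siNC and 142.9, 215.0 and 193.5 CPM in siPkm2. Within pairs siPkm2 was 1.16, 1.17 and 1.39 times siNC, and the groups overlapped. The log2 fold change was 0.30 ± 0.23 (adjusted p = 0.543) and with the block 0.30 ± 0.09 (adjusted p = 0.0676, edgeR), which did not pass.

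Tnfrsf1b encodes TNFR2, the inducible TNF receptor, which lacks a death domain (chr4:145213463-145246870, minus strand). Its siNC levels were 29.3, 131.8 and 24.9 CPM and its siPkm2 levels 93.4, 184.8 and 99.1 CPM. Replicates 1 and 3 lay low in siNC and about 3 to 4 times higher in siPkm2, whereas replicate 2 was already high in siNC, above both of those siPkm2 libraries. The ratios within pairs were 3.19, 1.40 and 3.99, and replicate 2 exceeded the mean of the other replicates by 4.87 times in siNC against 1.92 times in siPkm2. The group means were 62.0 ± 60.5 and 125.8 ± 51.2 CPM (SD, n = 3), and the log2 fold change of 1.02 ± 0.69 did not pass (adjusted p = 0.492, edgeR). It ran from 0.64 without siPkm2 replicate 2 to 2.22 without siNC replicate 2 (adjusted p = 0.0541, edgeR). With the block the log2 fold change was 1.38 ± 0.30 (2.60-fold, adjusted p = 0.0303, edgeR). In the same libraries the interferon list summed to 68.2 CPM in siNC replicate 1 and 93.4 CPM in replicate 3 but to 1920 CPM in siNC replicate 2, above siPkm2 replicates 1 and 3 (1363 and 1068 CPM); its part in the Tnfrsf1b result was not tested. The response element shown above for this gene lies directly before its RefSeq start, and whether it acts in these cells was not tested.

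**Figure D3:**
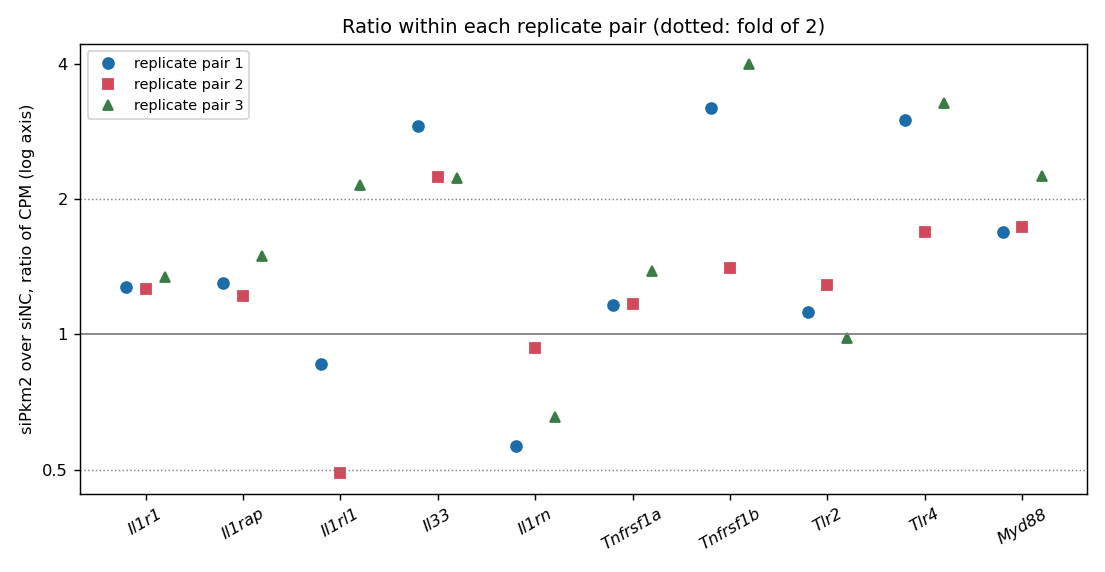
Ratio of siPkm2 over siNC in CPM (log axis) within each of the 3 replicate pairs for the 10 members, with dotted lines at a fold of 2. Tnfrsf1b and Tlr4 have their smallest ratio in pair 2 (1.40 and 1.69), Il1r1 has nearly equal ratios, and Il1rl1 runs from 0.491 to 2.15.

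Tlr2 senses bacterial lipopeptides together with Tlr1 or Tlr6 (chr3:83836272-83841767, minus strand). It measured 10.1, 54.3 and 14.4 CPM in siNC and 11.3, 69.6 and 14.1 CPM in siPkm2. Replicate 2 was 4.44 and 5.48 times the mean of replicates 1 and 3, and the groups overlapped throughout. Its pairs gave ratios of 1.12, 1.28 and 0.983, and the log2 fold change was 0.27 ± 0.91 (adjusted p = 0.910) and 0.18 ± 0.11 with the block (adjusted p = 0.288, edgeR). Neither fit called a difference, and the level of this receptor ran with that of the response genes, both highest in replicate 2; the part of replicate 2's other differences in it was not tested. Tlr2 is also the member with an NF-κB consensus in its window, and whether it acts in these cells was not tested.

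Tlr4, the receptor for bacterial lipopolysaccharide, was one of the clearest differences among the members (chr4:66827584-66930284, plus strand). Its level was 18.3, 41.2 and 14.9 CPM in siNC and 55.0, 69.7 and 48.9 CPM in siPkm2. The lowest siPkm2 library was above the highest siNC library, and pairs 1 and 3 differed more than pair 2, at ratios of 3, 1.69 and 3.27. The means were 24.8 ± 14.3 and 57.9 ± 10.7 CPM (SD, n = 3), a log2 fold change of 1.22 ± 0.40 that was not called without a block (adjusted p = 0.203). With the block Tlr4 rose by a log2 fold change of 1.34 ± 0.20 (2.54-fold, adjusted p = 0.0162, edgeR). The fit without a block called Tlr4 when siNC replicate 2, its highest siNC library, was left out (log2 fold change of 1.80, adjusted p = 0.0446, edgeR). The siPkm2 partner of that library stayed in, so this call is no separate support. The macrophage list, whose cells are known for Tlr4 and Tlr2, stood at 9.57, 62.8 and 8.54 CPM in siNC and 16.7, 40.1 and 11.2 CPM in siPkm2. It was higher in siPkm2 in pairs 1 and 3 and lower in pair 2. Cd68 held 4.36, 55.5 and 1.795 CPM of it in siNC and 11.8, 33.4 and 4.07 CPM in siPkm2. The part of this list in the Tlr4 result was not tested.

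Myd88 encodes the adaptor that signaling IL-1 family receptors and most toll-like receptors share (chr9:119335934-119341411, minus strand). Without the block it had the smallest standard error of the members, with 35.9, 45.6 and 33.0 CPM in siNC and 60.6, 78.9 and 74.2 CPM in siPkm2. Every siPkm2 library was above every siNC library, and the pairs gave ratios of 1.69, 1.73 and 2.25. From means of 38.2 ± 6.57 and 71.3 ± 9.52 CPM (SD, n = 3), the log2 fold change was 0.90 ± 0.18 (adjusted p = 0.122, edgeR) without the block. With the block Myd88 rose by 0.91 ± 0.11 (1.87-fold, adjusted p = 0.0130, edgeR), under the fold limit of 2. Its exons overlap those of Acaa1a on the other strand, and the strand setting of the counting is not stated; Acaa1a had means of 84.3 ± 13.8 and 82.9 ± 32.2 CPM, a log2 fold change of -0.02 (adjusted p = 0.979) and, with the block, -0.08 (adjusted p = 0.692).

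**Figure D4:**
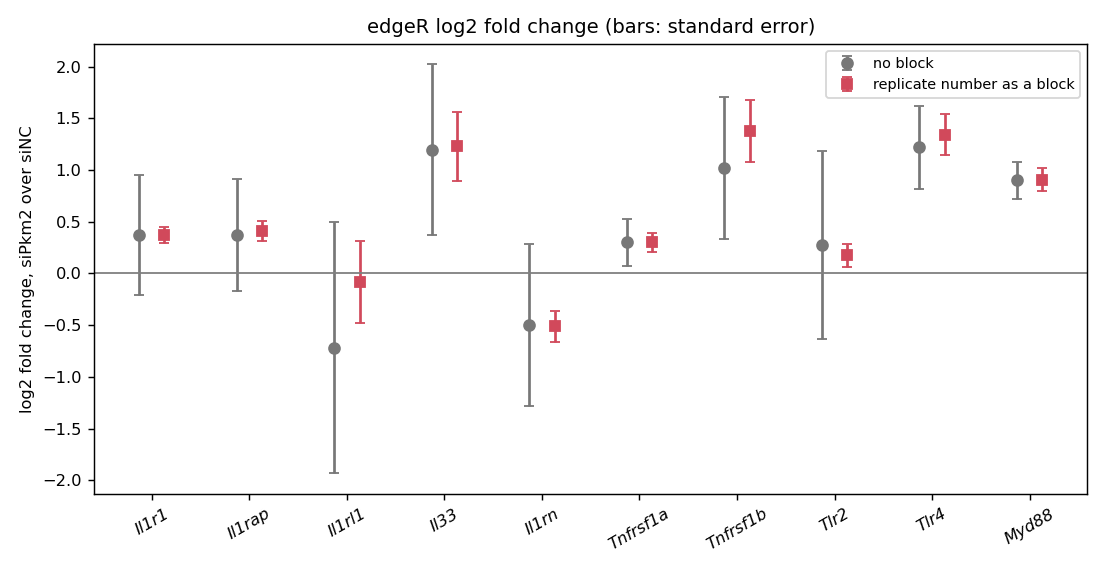
Log2 fold change of siPkm2 over siNC from edgeR for the 10 members, without a block (gray circles) and with the replicate number as a block (red squares), with bars for the standard error. The estimates of Il1r1, Tnfrsf1a and Myd88 barely move between the fits, those of Tnfrsf1b and Il1rl1 move most, and the errors are smaller with the block for every member.

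Since replicate 2 stood apart, the block was also fitted on the 4 libraries of replicates 1 and 3, where 1639 of 15185 genes (10.8%) were called at a fold over 2, and 19.8% of genes rose and 19.3% fell at any fold. Tnfrsf1b and Tlr4 were called again, with larger log2 fold changes of 1.82 (adjusted p = 0.000165, edgeR) and 1.64 (adjusted p = 0.000174). The pair left out held the smallest ratio of both genes (1.40 and 1.69), and the other libraries are the same, so these calls are no separate support. With 4 libraries and a block, the p-values of this fit lean on the spread pooled over genes. Myd88 rose there by 0.95 (adjusted p = 0.00157), Il1rap by 0.47 (adjusted p = 0.0213), Il1r1 by 0.38 (adjusted p = 0.0124) and Tnfrsf1a by 0.33 (adjusted p = 0.0325, edgeR). Il1rn, short of the threshold with all libraries, fell by a log2 fold change of -0.72 without replicate 2 (adjusted p = 0.00181, edgeR). Il33 (1.27, adjusted p = 0.1), Il1rl1 (0.44, adjusted p = 0.260) and Tlr2 (0.06, adjusted p = 0.770) did not pass.

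The other ligands, receptors and relay proteins of the same pathways were followed in a list of 87 genes from textbook membership, of which 61 were tested. The ligands of the signaling receptors were scarcely present. Il1b, which encodes IL-1β, had 2, 0 and 2 counts in siNC and 0 in every siPkm2 library, at or under the floor of 3 counts. Il1a stayed between 1 and 8 counts, Il1r2, the decoy receptor, between 0 and 9, and Tnf was seen mainly in replicate 2, with 11 counts in siNC and 41 in siPkm2 against at most 1 elsewhere. Il18, an IL-1 family ligand processed by caspase-1, was at 9.10 ± 1.44 CPM in siNC and 5.66 ± 0.92 CPM in siPkm2 (n = 3), with no overlap. It fell with the block by a log2 fold change of -0.68 ± 0.18 (adjusted p = 0.0448, edgeR) and was not called without it (adjusted p = 0.220).

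Without a block none of the 61 tested genes was called by edgeR, 13 had an unadjusted p under 0.05 (17.6% of all genes), and DESeq2 called 1; the log2 fold change was above 0 for 44, and for 7341 of all 15269 genes, with medians of 0.27 and -0.02. With the block, 4 were called as higher and none as lower at a fold over 2, and with no limit on the fold 18 rose and only Il18 fell, read against 12.3% and 10.8% of all genes. The siPkm2 libraries lay wholly above siNC for 12 and wholly below for 2, where 12% and 12.3% of all genes did. The 4 genes past the fold limit were a decoy receptor, a ligand, a co-receptor and a toll-like receptor. Tnfrsf11b encodes osteoprotegerin, the decoy for RANKL, and was at 232.0, 303.4 and 99.8 CPM in siNC and 1105, 639.0 and 633.5 CPM in siPkm2. This decoy rose with the block by 2.002 ± 0.32 on the log2 scale (4.01-fold, adjusted p = 0.0173, edgeR) and did not overlap. Tnfsf11, which encodes RANKL itself, was at 2.44, 23.9 and 1.93 CPM in siNC and 12.03, 44.2 and 10.4 CPM in siPkm2 (1.77 ± 0.33 with the block, adjusted p = 0.0233, edgeR).

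Among toll-like receptors and co-receptors, 3 of 8 tested genes rose with the block at any fold and none fell, against 12.3% and 10.8% of all genes. Cd14 hands lipopolysaccharide to the Tlr4 complex, and it went from 0.96, 14.9 and 1.23 CPM in siNC to 4.94, 23.5 and 3.25 CPM in siPkm2 (1.35 ± 0.34, adjusted p = 0.0432, edgeR). Tlr3, the endosomal receptor for double-stranded RNA, was at 3.68, 19.1 and 3.55 CPM in siNC and at 13.4, 24.8 and 10.4 CPM in siPkm2 (1.22 ± 0.31, adjusted p = 0.0444, edgeR). As for Tlr4 and Tnfrsf1b, the smallest ratio of Cd14 and Tlr3 was in pair 2, at 1.58 and 1.30, where siNC was already high. Lbp, the other gene that rose (0.74 ± 0.18, adjusted p = 0.0378, edgeR), did not share this. Its siNC levels were 17.98, 326 and 44.14 CPM, and its ratios were 1.76, 2.18 and 1.195, largest in pair 2. Of 12 TNF family receptors tested, 2 rose and none fell, a share near that of all genes (12.3% and 10.8%). Fas, the death receptor, was at 20.7 ± 15.9 and 20.6 ± 18.9 CPM, with an adjusted p of 0.999 without the block and a log2 fold change of -0.12 with it (adjusted p = 0.522, edgeR).

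**Figure D5:**
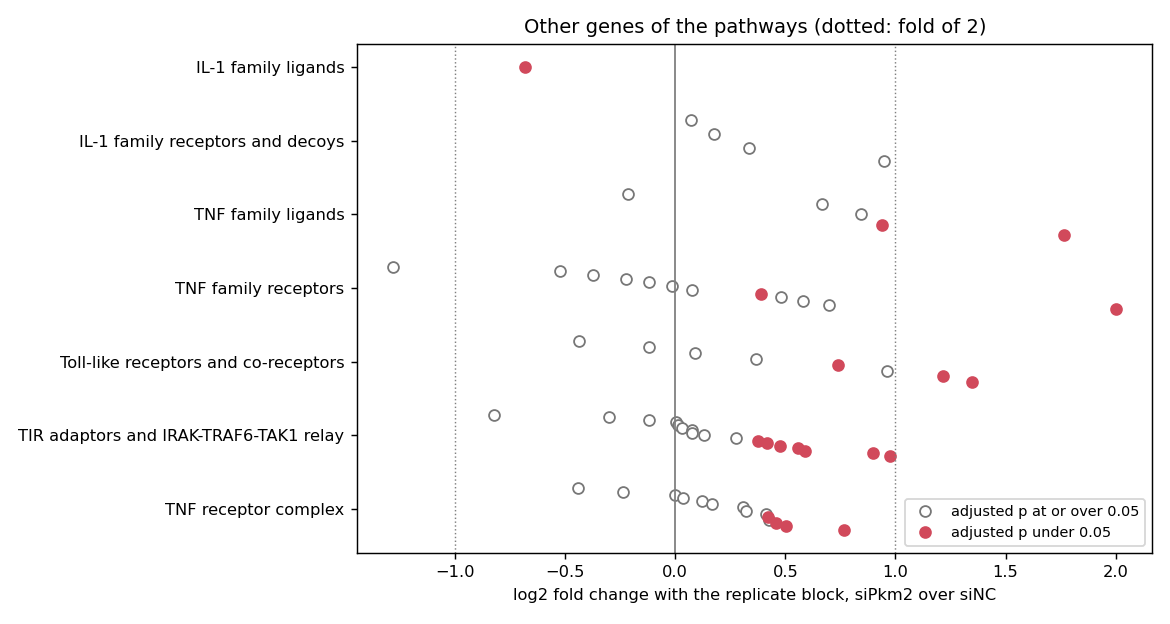
Log2 fold change of siPkm2 over siNC with the replicate block for the 61 tested pathway genes (one point each) by class, filled where the edgeR adjusted p is under 0.05. Filled points lie right of 0 in every class but the ligands of the IL-1 family, where the single point is Il18, and the IL-1 family receptors, which have none; 4 lie past the dotted line at a fold of 2.

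At any fold, the list of other TIR-domain adaptors and the IRAK and TRAF6 relay held 7 of 17 tested genes that rose with the block. None of them fell. The TNF receptor complex held 4 of 14 that rose and none that fell. Of all genes, 12.3% rose and 10.8% fell. The genes named next were picked after their values were seen, as those with the lowest adjusted p. Traf6, the ubiquitin ligase that joins the IL-1 and toll-like receptor branches, was at 23.8 ± 2.66 CPM in siNC and 44.2 ± 1.96 CPM in siPkm2 (0.90 ± 0.09 with the block, adjusted p = 0.0110, edgeR). Tollip, which restrains IRAK1 in resting cells, was at 79.5 ± 5.38 and 156.6 ± 16.2 CPM (0.98 ± 0.12, adjusted p = 0.0125). Irak4, the kinase nearest to MyD88, was at 14.7 ± 2.002 and 22.03 ± 2.57 CPM (0.59 ± 0.10, adjusted p = 0.0183). In the TNF branch, Ripk1 was at 55.6 ± 0.85 and 76.5 ± 1.59 CPM (0.46 ± 0.07, adjusted p = 0.0176), and Cflar, the inhibitor of caspase-8, at 57.7 ± 11.6 and 97.8 ± 16.2 CPM (0.77 ± 0.08, adjusted p = 0.0109). The siPkm2 libraries of these 5 genes all lay above the siNC libraries, as for 12% of all genes. A choice by lowest adjusted p favors such genes, so this is no further result about them. Replicate 2 was within 1.5 times each other replicate of its group for all 5.

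For each member the tested genes most like it over the 6 libraries were found by Pearson's r of log2(CPM + 1), as a description over 6 points that share libraries. Likeness was near 1 throughout. It was led by Emilin2 (r = 0.999) for Il1r1, Avpr1a (0.999) for Il1rap, Il13ra1 (0.999) for Il1rl1, Capn1 (0.997) for Il33, Cebpa (0.992) for Il1rn, Tmem19 (0.997) for Tnfrsf1a, Parvb (0.998) for Tnfrsf1b, Arl5c (0.998) for Tlr2, Tlcd5 (1.000) for Tlr4 and C2cd2l (0.996) for Myd88. Next were Gm43041, Rbm47, Tmem74, Tmem243, Gldn, Epg5, Ifi211, Ifnar2, Flii and Ptpn1 in the same order of members, at 0.992 to 0.999. Among the members themselves, the highest values were those of Il33 with Tnfrsf1a (r = 0.969), Tlr2 with Il1rap (0.962) and Tlr4 with Tnfrsf1b (0.957).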

How the data were processed

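Total RNA of 6 chondrocyte libraries was sequenced on an Illumina platform. The authors deposited estimated counts per gene (not normalized; 33.1% of values above 0 were fractional) and TPM, which the authors scaled within each library; per the labels the build is mm9 and edgeR was a tool, while the table is named for DESeq2. The aligner and counter are not given in the sources used here. The deposited fold changes, log2 fold changes and p-values of the authors' own comparison were not used. Positions are from GENCODE M21 (GRCm38), matched by Ensembl identifier.

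Counts were rounded and scaled by TMM factors, genes were kept by filterByExpr on the group (15269 of 28059 with a count), and groups were compared in R 4.3.3 with edgeR 4.0.16 (quasi-likelihood test; p-values adjusted after Benjamini-Hochberg across the genes kept). Calls needed a fold over 2 and an adjusted p under 0.05, the study's threshold. The SE is the log2 fold change divided by the root of F. Alternatives were other scaling factors and filters, DESeq2 1.42.0, limma 3.58.1 on log2(TPM + 0.5), each library left out, replicate 2 left out, and a block for the replicate number. Both groups are numbered 1 to 3 in the labels, and same-numbered libraries deviated together across genes (correlations of 0.644, 0.741 and 0.621; other pairs at most 0.14), so values with the block are given. The fits were tested on simulated data without a replicate effect, which cannot show how they handle the difference of replicate 2. Intervals cover counting error only. Within groups, no pair of libraries was a duplicate. The members and lists were chosen with earlier results of these data known. Named were all members, pathway genes called in either fit, Il1a, Il1b, Il18, Tnf, Il1r2, Tlr3 and Fas, the 2 genes most like each member, and the leading genes of the marker lists. Lbp and the genes picked by lowest adjusted p were named after their values were seen. The IL-36 genes of the list appear under older symbols.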

Additional observations from a re-analysis of the deposited data

How the results depend on the processing

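With the replicate block, the number of members called went from 0 to 2 (Tnfrsf1b and Tlr4), that of the pathway list from 0 to 4 and that of all genes from 0 to 890; with the block in DESeq2 they were 2, 5 and 1017. Leaving out replicate 2 of both groups gave 2, 9 and 1639 with the block and, in a fit chosen after seeing the data, 2, 4 and 507 without it. With the block and no limit on the fold, also added after seeing the data, they were 5, 19 and 3524. The number of all genes called was 3 with upper-quartile factors, 430 by DESeq2 without a block, 9 with no filter, 3 with at least 10 counts in every library and 1 by limma on TPM; of these settings, DESeq2 called 1 pathway gene, and none called a member. Leaving out 1 library at a time gave 0 to 1 members (Tlr4, without siNC replicate 2), 0 pathway genes and 0 to 105 genes in all, with 105 without siNC replicate 2; a group left with 2 libraries shares its spread with the other.

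Log2 fold changes of 4 members changed sign. Il1rl1 was at 0.44 with the block and at 0.50 without it when replicate 2 was left out, and at 1.69 without siNC replicate 2. Tlr2 was negative without siNC replicate 1 (-0.11), siNC replicate 3 (-0.01) or siPkm2 replicate 2 (-1.04), Il1rn positive without siNC replicate 3 (0.41), and Il1rap negative without siPkm2 replicate 2 (-0.18). Over the 6 fits that each left out 1 library, Il1rl1 ran from -1.90 to 1.69, Tlr2 from -1.04 to 1.38, Il1rn from -1.23 to 0.41, Il1rap from -0.18 to 1.04, Il33 from 0.60 to 1.85, Tnfrsf1b from 0.64 to 2.22, Tlr4 from 0.97 to 1.80, Il1r1 from 0.01 to 0.74, Tnfrsf1a from 0.18 to 0.49 and Myd88 from 0.81 to 1.05. These fits used no block and kept the partner of the library left out. Within pairs, siPkm2 was higher in all 3 for Il1rap, in 2 for Tlr2 and in 1 for Il1rl1, and lower in all 3 for Il1rn. The cause of the sign changes was not tested. Of 159 values of single members under the alternatives, 142 kept their direction and their side of the threshold, 9 passed it (Tnfrsf1b and Tlr4), and 8 changed sign. Il33 had under 10 counts in a library, so it was not tested under that filter. Depth limits Il33, with 4 to 63 counts in a library; with 3 libraries a group, the spread between replicates enters every test.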
